A study of Psammomys obesus with 8 samples.

Results

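The axon guidance ligand and receptor genes were read in DNA from the hypothalamus of sand rats (Psammomys obesus), desert gerbils that grow obese and diabetic on rich laboratory food. All animals were male. Members were the assembled DNA contigs that lay inside a mouse gene by their sequence match (distance 0 to the gene) and whose gene symbol belonged to the semaphorins (Sema3 to Sema7), plexins, neuropilins, Eph receptors, ephrins, slits, robos, netrins or netrin-Gs, or was Dcc. This gave 1078 contigs in 67 genes, out of 548060 contigs in the table and 125082 inside any mouse gene. They were 20 semaphorin, 9 plexin, 2 neuropilin, 14 Eph, 8 ephrin, 3 slit, 4 robo, 4 netrin and 2 netrin-G genes besides Dcc.

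The DNA had been passed over MethylMiner beads, which carry the part of MBD2 that binds methylated CpG, and the fragments they held were sequenced. The 4 low-low and 4 standard-low libraries all came from males aged 16 weeks after birth. The low-low libraries are labelled with a low lipid diet and the standard-low libraries with a standard lipid diet. The deposited design gives the diets of the fathers as what was compared, the title speaks of the parents, and the labels do not say which diet the offspring themselves ate. Libraries carry replicate numbers in the labels, with no word on whether each came from its own animal or litter, so the p-values speak only of the spread between these samples.

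A growing axon steers by reading ligands in its surroundings through receptors on its growth cone. Semaphorins act through plexins, the secreted ones with neuropilins as co-receptors, ephrins on one cell act on Eph receptors of the next, slits act through robos, and netrins through Dcc. In the hypothalamus these systems guide projections such as those of the arcuate nucleus and the migration of neurons that release gonadotropin-releasing hormone, and in the adult many of the same proteins sit at synapses. A capture count reports how much methylated DNA was pulled down from a stretch of sequence. It does not report the expression of the gene, and in tissue it cannot tell a change of methylation within a cell type from a change in the mixture of cells.

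Capture depends on the number of methylated CpG dinucleotides in a fragment, so the sequence itself is part of the measurement. The sequences below are sand rat contigs from the deposited table, given as the 240 bases of the contig that hold the most CpG, 5′ to 3′ as assembled, with each CpG in capitals. They were chosen after the values were seen, as contigs with the lowest p in each direction among those whose groups did not overlap. Epha8 contig 212575 was left out, although its p was below that of the Plxnb2 contig printed here. The first 3, in Sema3f, Plxnd1 and Plxnb2, were lower in standard-low libraries by an unadjusted edgeR p under 0.05. The other two, in Epha7 and Epha4, were higher.
Sema3f contig 4476506, bases 344 to 583: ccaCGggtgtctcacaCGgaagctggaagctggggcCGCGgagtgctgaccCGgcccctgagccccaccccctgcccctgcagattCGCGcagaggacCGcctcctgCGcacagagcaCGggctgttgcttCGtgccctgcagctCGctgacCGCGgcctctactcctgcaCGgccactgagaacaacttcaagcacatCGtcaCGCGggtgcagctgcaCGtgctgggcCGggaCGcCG
Plxnd1 contig 1251362, bases 379 to 618: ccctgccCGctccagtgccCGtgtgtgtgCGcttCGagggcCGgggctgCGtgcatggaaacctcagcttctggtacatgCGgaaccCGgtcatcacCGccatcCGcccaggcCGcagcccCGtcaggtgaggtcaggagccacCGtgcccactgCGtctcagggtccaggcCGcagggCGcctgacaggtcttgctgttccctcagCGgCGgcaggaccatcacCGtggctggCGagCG
Plxnb2 contig 3721925, bases 316 to 555: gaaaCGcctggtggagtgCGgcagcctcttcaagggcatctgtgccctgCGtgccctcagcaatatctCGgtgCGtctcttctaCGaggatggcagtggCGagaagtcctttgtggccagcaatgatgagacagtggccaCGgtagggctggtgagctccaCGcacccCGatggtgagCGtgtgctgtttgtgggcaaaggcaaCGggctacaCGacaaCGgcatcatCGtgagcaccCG
Epha7 contig 1985243, bases 170 to 409: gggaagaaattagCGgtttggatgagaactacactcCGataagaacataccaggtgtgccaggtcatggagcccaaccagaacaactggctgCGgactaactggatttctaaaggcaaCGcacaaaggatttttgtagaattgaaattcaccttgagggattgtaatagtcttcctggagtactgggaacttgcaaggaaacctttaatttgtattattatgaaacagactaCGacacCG
Epha4 contig 3941516, bases 339 to 578: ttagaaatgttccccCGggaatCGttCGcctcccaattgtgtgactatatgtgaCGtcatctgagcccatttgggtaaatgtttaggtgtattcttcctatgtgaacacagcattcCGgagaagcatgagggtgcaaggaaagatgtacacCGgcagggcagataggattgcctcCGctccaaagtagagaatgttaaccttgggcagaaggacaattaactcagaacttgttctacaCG
These windows hold 22, 21 and 16 CpG in Sema3f, Plxnd1 and Plxnb2, but 6 in Epha7 and 8 in Epha4. Over the whole contig the density was 5.57, 5.30 and 4.63 CpG per 100 bases in the first 3, and 1.43 and 1.98 in the other two. The first 3 belong to the densest of the lower contigs. Of the 48 lower contigs at an unadjusted p under 0.05, 5 held under 2 CpG per 100 bases, 16 held 2 to 3, 16 held 3 to 4 and 11 held 4 or more. Of the 35 higher ones these classes held 20, 12, 3 and 0. By their mouse match the contigs lie at chr9:107682422-107683286 in Sema3f, chr6:115967161-115967727 in Plxnd1 and chr15:89167344-89168012 in Plxnb2, all on the reverse strand of the match. Those of Epha7 and Epha4 lie at chr4:28820838-28821391 and chr1:77393915-77394320, on the forward strand. No source used here names the mouse build, and exons and introns were not analysed here.

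The libraries held 11646180 to 13533441 counted reads, and every low-low library (12528388 or more) was deeper than every standard-low library (12156525 or fewer). A member contig held a median of 19.9 reads per library, with a range of means from 10.1 to 206, so single contigs carry a wide counting error. Standard-low libraries 2 and 4 stood apart from the other 6. Their summed CPM (counts per 1000000 reads) in contigs of 4 or more CpG per 100 bases, divided by those in contigs under 2, were 0.124 and 0.127 over the whole table, against 0.142 and 0.173 in standard-low 1 and 3 and 0.146 to 0.173 in the low-low libraries. The groups overlapped through standard-low 3, which lay at the level of the highest low-low library. Summed CPM over 7 cell type marker lists overlapped between the groups for each list, and 0 of their contigs were called. In low-low and then standard-low libraries it ranged from 277.8 to 288.6 and 270.0 to 294.7 for neurons (7 of 8 genes measured), from 78.5 to 82.0 and 61.7 to 84.4 for oligodendrocytes (6 of 8), and from 87.2 to 96.8 and 90.5 to 95.6 for astrocytes (6 of 7). It was 125.6 to 130.6 and 103.2 to 134.5 for microglia (6 of 7), and 303.0 to 312.8 and 303.1 to 313.8 for endothelium (5 of 7). It was 144.5 to 159.1 and 137.1 to 159.0 for ependymal cells with tanycytes (4 of 6), and 16.7 to 20.2 and 14.5 to 20.3 for pituitary (5 of 7). Among the genes with no contig inside were Gfap, Olig1, Olig2, Cldn5, P2ry12 and Rax, and methylation of a marker gene does not report the presence of its cell type. At an unadjusted p under 0.05 the oligodendrocyte list, at 3.21 CpG per 100 bases, had 4 lower and 0 higher of 31 contigs (12.9%, against 5.68% of all contigs). Of its 6 genes 5 had lower estimates, with Sox10 under that p and a median log2 fold change of -0.23. The microglia list had 3 lower and 0 higher of 55 contigs (5.455%, against 5.68% of all contigs), a share near the background. All 6 of its genes had lower estimates, with Tmem119 under that p, and over all genes 41.3% had higher estimates. Both sums were lowest in standard-low 2, at 61.7 and 103.2 CPM, and highest in standard-low 3. The part of the cell mixture in the differences below was not tested.

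Capture of the 67 genes was compared as the summed CPM of a gene divided by the total length of its contigs in kb. Plxnb2, a plexin that binds class 4 semaphorins, stood highest at 7.19 CPM per kb over the 8 libraries, with a range of 4.82 to 8.16. Efna2, a membrane-anchored ephrin, followed at 5.48, then Sema6b at 5.17, Sema4g at 5.13 and Ephb3 at 5.002. The median gene, Nrp2, had 3.39. At the low end were Efna5 at 2.60, Sema3c at 2.59, Plxna3 at 2.56 and Efnb1, read from 1 contig, at 1.85.

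The order is gradual, and for 0 of the 66 neighbouring pairs of genes did the library ranges stand apart. By family, capture per kb was highest in plexins (4.16) and semaphorins (3.73), followed by Eph receptors (3.47), netrins (3.43), robos (3.34), neuropilins (3.34), slits (3.28), netrin-Gs (3.02), Dcc (2.94) and ephrins (2.81). The 3 genes with an X-linked mouse match, Efnb1, Plxna3 and Plxnb3, had 1.85, 2.56 and 3.07 CPM per kb, all below the median gene. All libraries came from males, and whether X linkage plays a part in these levels was not tested. Efna5, with an autosomal match, stood close to Plxna3.

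**Figure D1:**
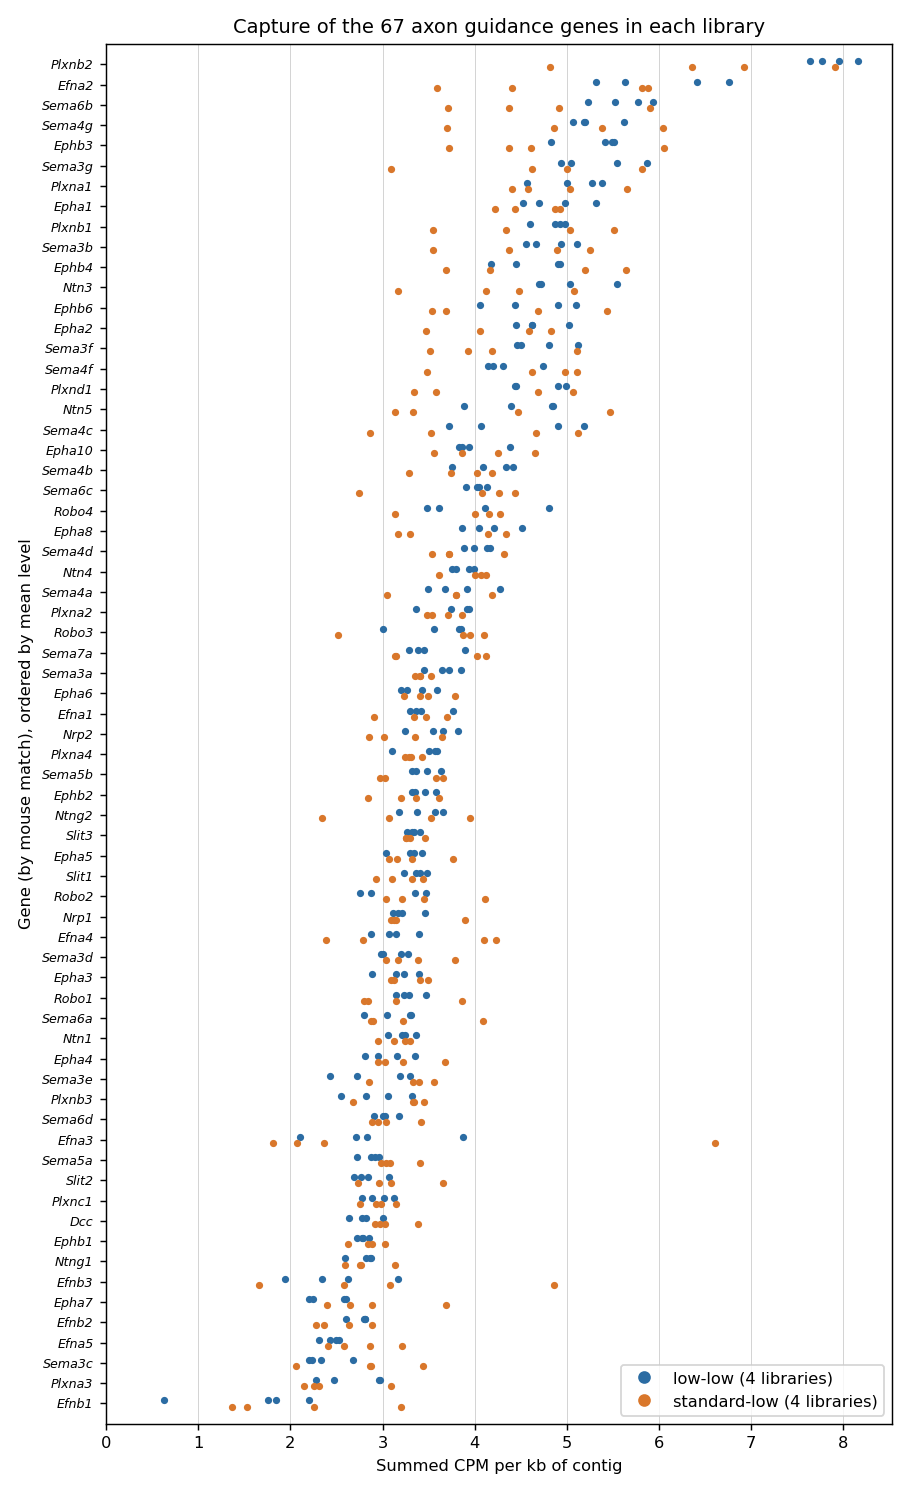
Summed CPM per kb of contig for each of the 67 genes in each library (points, low-low in blue and standard-low in orange), ordered by the mean over 8 libraries. Plxnb2 leads at 7.19 and Efnb1 is lowest at 1.85, and toward the top of the plot some standard-low points lie far to the left of the low-low points.

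Gene level followed CpG density. Across the 67 genes, CpG per 100 bases of contig and CPM per kb had a Spearman rho of 0.66, and across the 1078 contigs of 0.50, close to the 0.51 over all contigs inside genes. These are descriptions across genes and contigs that share the same 8 libraries. Within each of the 18 genes with 20 or more contigs the relation had the same sign, from a rho of 0.25 in Epha6 to 0.59 in Plxnd1. Contigs of 1 gene differed as widely as the genes did: the 105 contigs of Slit3 ranged from 1.08 to 8.72 CPM per kb, and the 36 of Slit1 from 1.86 to 8.54.

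The 5 contigs with the highest capture per kb lay in genes of several families. They were Slit3 contig 919985 (8.72 CPM per kb), Slit1 contig 4339093 (8.54), Sema5a contig 4265858 (8.44), Plxnb2 contig 3721925 (8.42) and Plxnd1 contig 663548 (8.39). Of these, only the Plxnb2 contig differed between groups by an unadjusted p under 0.05. The members were richer in dense contigs than the table: 88 of 1078 (8.16%) held 4 or more CpG per 100 bases, against 5.44% of contigs inside genes and 4.11% of all contigs. Their median length was 521.5 bases and their median match to mouse 364.5 bases, against 518 and 269 for contigs inside genes.

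The main comparison asked where capture in standard-low libraries differed from that in low-low libraries. Among the 1078 member contigs, 0 passed an adjusted p below 0.05 (edgeR quasi-likelihood test, Benjamini-Hochberg over all 548060 contigs), where 0.0268% of all contigs did. DESeq2 and limma voom also called 0 of the members. At the nominal level, meaning an unadjusted p under 0.05, 83 contigs (7.70%) differed, beside 5.68% of all contigs and 6.0% of contigs inside genes. Of these 48 were lower in standard-low (4.45% of members, 2.76% of all contigs) and 35 were higher (3.25%, against 2.93%).

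In 46 contigs (4.27%) the groups did not overlap, that is, each library of one was above each library of the other, as in 3.24% of all contigs. Of the 46, 28 were lower and 18 higher in standard-low. The median log2 fold change over the members was -0.01, beside 0.00 over all contigs and -0.02 over contigs inside genes. The share of higher contigs lay near that of all contigs. The shares of lower contigs and of contigs without overlap lay above theirs, and the difference was not tested. Members overlapping each other in mouse coordinates (98 pairs among 72 contigs, 57 of the pairs in Ephb2) are not independent.

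When the counts of all contigs of a gene were summed, 0 of the 67 genes passed an adjusted p below 0.05 with edgeR, DESeq2 or limma voom, where 0.00529% of the 18910 genes did with edgeR. At the nominal level, 3 genes were lower in standard-low, Plxnb2, Sema6b and Efna2 (4.48% of members, 4.33% of all genes), and 2 were higher, Efna5 and Epha7 (2.99%, against 1.7%). When the scaling factors were taken from the gene sums in place of the contigs, the same 3 genes were lower and 5 were higher, with Dcc, Sema3c and Sema5a added. Over all genes that scaling moved the lower share from 4.33% to 3.20% and the higher share from 1.7% to 3.02%. Sema5a was the 1 gene of 67 (1.49%) whose groups did not overlap, where 3.49% of all genes did not. Estimates were below 0 in 37 genes and above 0 in 30 (44.8%, against 41.3% of all genes). Their median was -0.04, beside -0.03 over all genes.

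The direction of the member differences followed CpG density. In the 341 contigs with under 2 CpG per 100 bases, summed CPM was 495.3 ± 8.4 in low-low and 530.4 ± 25.4 in standard-low libraries (SD, n = 4), a ratio of 1.07. In the 88 contigs with 4 or more, it was 232.2 ± 15 and 198.8 ± 34.8, a ratio of 0.856. The classes between them had ratios of 0.991 (467 contigs with 2 to 3 CpG per 100 bases) and 0.917 (182 contigs with 3 to 4).

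Contigs at the nominal level divided in the same way. Among the sparsest contigs 5 were lower and 20 higher in standard-low (1.47% and 5.87%, against 1.27% and 4.29% of all contigs that sparse). Among those with 2 to 3 CpG per 100 bases 16 were lower and 12 higher (3.43% and 2.57%, against 2.64% and 2.33% of all contigs in that class). Among those with 3 to 4 it was 16 and 3 (8.79% and 1.65%, against 5.70% and 1.22%), and among the densest 11 and 0. The densest class had 12.5% lower and 0.0% higher, against 9.92% and 1.31% of all contigs that dense. The split among members ran in the same direction as over the whole table. In each class the lower share was above that of all contigs, and the difference was not tested. Spearman's rho between CpG density and log2 fold change was -0.31 across member contigs, -0.28 across all contigs inside genes and -0.23 across the whole table.

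**Figure D2:**
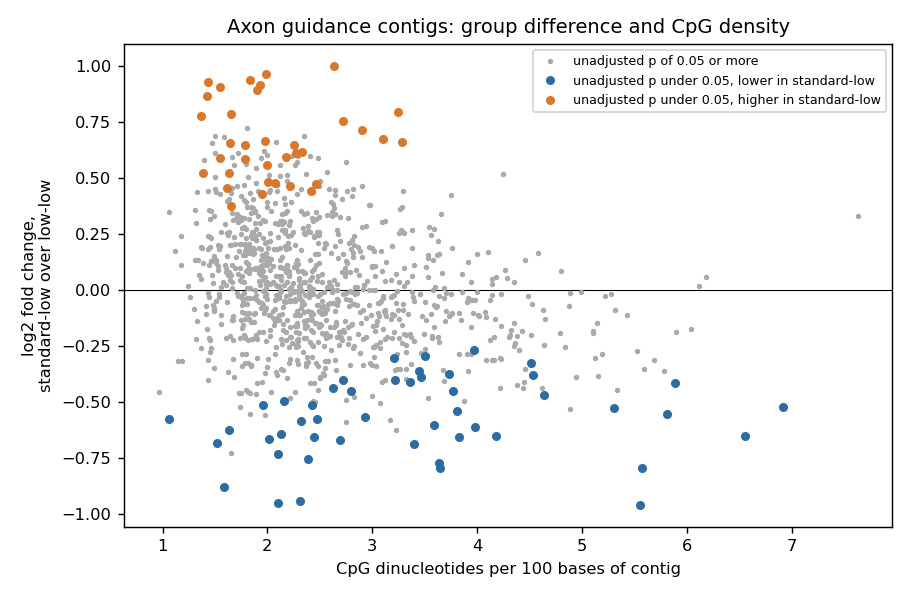
Log2 fold change of standard-low over low-low against CpG per 100 bases for the 1078 member contigs, with the 48 lower and 35 higher contigs at the nominal level in blue and orange. Orange points lie mostly to the left of 2.5 and none lies at 4 or above, where 11 blue points are found.

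The ratio of member CPM at 4 or more CpG per 100 bases to that under 2 was 0.416, 0.498, 0.484 and 0.479 in low-low 1 to 4. It was 0.401, 0.286, 0.480 and 0.344 for standard-low 1 to 4. Standard-low 2 and 4 were lowest, standard-low 1 lay just below low-low 1, and standard-low 3 lay among the low-low libraries. The group means were 0.469 ± 0.036 and 0.378 ± 0.083 (SD, n = 4), and the groups overlapped.

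An offset for CpG density per library, chosen after seeing the data, lowered the rho across member contigs to -0.07. The offset was fitted to these same counts, so a weaker relation with density was built in. With the offset 65 member contigs were at the nominal level, 31 lower and 34 higher, and 53 of them were among the 83 above. Over all contigs 2.37% were lower and 2.78% higher with the offset. Again 0 passed the adjusted threshold. For gene sums only Plxnb2 (lower) and Efna5 (higher) remained at the nominal level, where 2.52% of all genes were lower and 1.97% higher, and the median over the 67 genes went from -0.04 to 0.00. What made the libraries differ in CpG-dense capture was not tested.

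**Figure D3:**
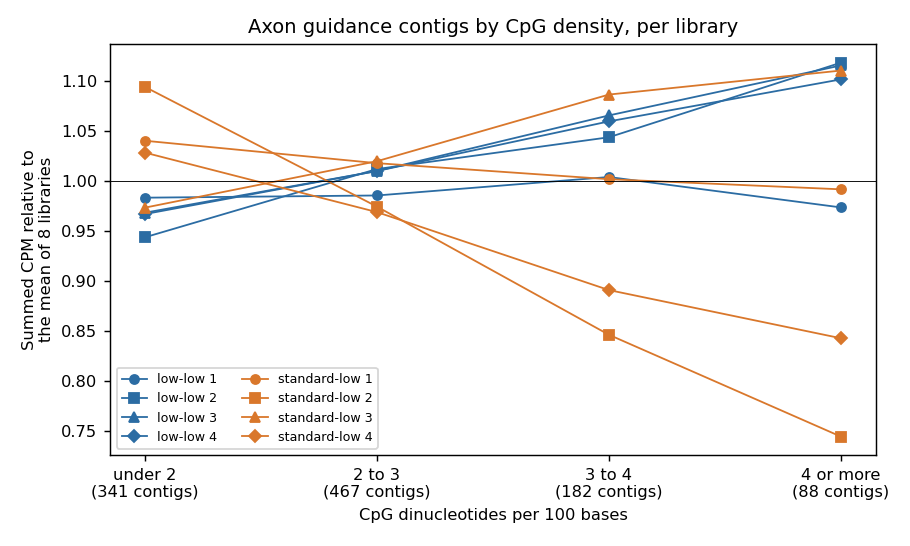
Summed CPM of the member contigs in 4 classes of CpG density, each relative to the mean of the 8 libraries, with 1 line per library. Standard-low 2 and 4 lie lowest in the classes of 3 to 4 and 4 or more, while standard-low 3 runs with low-low 2, 3 and 4.

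Among the semaphorin ligands, 13 of 224 contigs were at the nominal level, 7 lower and 6 higher in standard-low, and 12 of 20 genes had lower estimates. The contig with the smallest p of all members lay in Sema3f, a secreted semaphorin that repels axons through Nrp2. Sema3f contig 4476506 had 3.74, 4.46, 4.58 and 4.53 CPM for low-low 1 to 4 and 2.23, 2.11, 2.98 and 2.62 CPM for standard-low 1 to 4. Every standard-low library lay below every low-low library. The log2 fold change was -0.80 ± 0.19 (SE), with an unadjusted p of 6.99e-05 and an adjusted p of 0.156 in edgeR's test. With the CpG density offset it was -0.63, with an unadjusted p of 0.0010 and an adjusted p of 0.631.

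The 12 contigs of Sema3f summed to 34.7 ± 2.2 CPM over the low-low and 30.8 ± 5.0 over the standard-low libraries (log2 fold change -0.17 ± 0.09, unadjusted p = 0.0769 in edgeR's test), and no other contig of the gene was at the nominal level. Sema6b, a membrane-bound semaphorin that binds class A plexins, had 31.6, 33.4, 34.9 and 35.9 CPM for low-low 1 to 4. For standard-low 1 to 4 it had 29.8, 22.4, 35.7 and 26.5, so standard-low 3 lay within the low-low range and the other three below it. The estimated log2 change was -0.25 ± 0.10, with an unadjusted p of 0.0241 and an adjusted p of 0.805. Without standard-low 2 it was -0.15 (unadjusted p = 0.0653 in edgeR's test), and without standard-low 3 it was -0.37 (unadjusted p = 0.00014, adjusted p = 0.0616).

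Sema3c and Sema5a had estimates above 0. Sema3c, a secreted semaphorin with 1.48 CpG per 100 bases, had 8.46 ± 0.78 CPM over the low-low and 10.1 ± 2.0 over the standard-low libraries, with a log2 fold change of 0.25 ± 0.14 and an unadjusted p of 0.0799. Sema5a, a membrane-bound semaphorin with thrombospondin repeats, had 27.1, 26.7, 26.3 and 24.9 CPM for low-low 1 to 4 and 28.2, 31.2, 27.3 and 27.8 for standard-low 1 to 4. Its groups did not overlap, and the nearest values of each were 27.1 and 27.3. The log2 fold change was 0.125 ± 0.075, with an unadjusted p of 0.109. Sema6d contig 2744036 was the semaphorin contig named in the other direction, from 0.578 ± 0.245 CPM in low-low to 1.10 ± 0.25 in standard-low libraries (unadjusted p = 0.0143 in edgeR's test), on 82 reads in all 8 libraries.

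Sema3a, the secreted semaphorin that collapses growth cones through Nrp1, had 18.6 ± 0.9 CPM over the low-low and 17.4 ± 0.4 over the standard-low libraries over 10 contigs, with a log2 fold change of -0.10 ± 0.08 and an unadjusted p of 0.248. Its contig 2820940 was at the nominal level, from 2.66 ± 0.60 to 1.86 ± 0.19 CPM without overlap. By class, 5 of the 6 class 4 genes, 4 of the 7 class 3 genes, 2 of the 4 class 6 genes and 1 of the 2 class 5 genes had lower estimates, and Sema7a, the semaphorin with a lipid anchor, had a higher one. Over all genes 41.3% had higher estimates.

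In the plexins, the receptors of semaphorins, 11 of 144 contigs were lower (7.64%) and 3 higher (2.08%) in standard-low at the nominal level. Over all contigs these shares were 2.76% and 2.93%, and the difference from them was not tested. Of the 9 plexin genes 7 had lower estimates and 2 (22.2%) higher ones, beside 41.3% higher over all genes. Plxnb2 held 5 of the 11 lower contigs. Its summed CPM was 63.0, 65.6, 67.3 and 64.1 in low-low 1 to 4 and 57.1, 39.7, 65.2 and 52.4 for standard-low 1 to 4. Standard-low 3 lay inside the low-low range and the other three lay below it. The mean went from 65.0 ± 1.9 to 53.6 ± 10.7 CPM, with a log2 fold change of -0.28 ± 0.10 (0.825-fold), with an unadjusted p of 0.00846 and an adjusted p of 0.805 in edgeR's test.

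Without standard-low 3 the adjusted p of Plxnb2 was 0.0405, the only gene or named contig among members to pass in any alternative, where its adjusted p ranged from 0.0405 to 0.9996. Leaving out that library also raised the genes called over the whole table from 1 to 27 of 18910 (0.143%), and those lower at the nominal level from 4.33% to 12.15%. Of its 10 contigs, 9 had lower estimates. Those at the nominal level were 3721925, 1873310, 1393017, 1670141 and 2487605, with log2 fold changes from -0.47 to -0.27 and densities of 3.46 to 4.63 CpG per 100 bases. Contig 3721925 had 6.34, 6.39, 7.79 and 5.68 CPM for low-low and 4.96, 3.96, 5.14 and 4.82 CPM for standard-low 1 to 4. Its groups did not overlap, and its unadjusted p was 0.00418 in edgeR's test. With the CpG density offset the gene's log2 fold change was -0.17, with an unadjusted p of 0.0217 and an adjusted p of 0.986.

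Plxnd1, the receptor of Sema3e in vessels and axons, had 59.3 ± 3.7 CPM over the low-low and 52.7 ± 10.6 over the standard-low libraries over 23 contigs, with a log2 fold change of -0.17 ± 0.10 and an unadjusted p of 0.0956. Its contig 1251362 had 4.89, 4.83, 4.82 and 5.68 CPM for low-low 1 to 4. For standard-low 1 to 4 it had 3.85, 2.70, 4.31 and 3.13 CPM, all below the low-low values. Its log2 fold change was -0.53 ± 0.18, with an unadjusted p of 0.00334 and an adjusted p of 0.726.

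The class A plexins, which pair with neuropilins, had 3 lower and 3 higher of 68 contigs at the nominal level. Plxna4 had 58.4 ± 3.8 CPM over the low-low and 56.3 ± 1.4 over the standard-low libraries (log2 fold change -0.05 ± 0.06, unadjusted p = 0.393 in edgeR's test). Of its 36 contigs, contig 3431111 was named for a higher value, from 0.655 ± 0.137 to 1.22 ± 0.14 CPM without overlap, on 92 reads in all. Plxna3 had 6.80 ± 0.89 and 6.24 ± 1.09 CPM. All 4 class A genes had lower estimates, between -0.12 and -0.04, and none was at the nominal level.

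The co-receptors Nrp1 and Nrp2 held 54 contigs, of which 1 was lower and 2 higher at the nominal level (5.56%, against 5.68% of all contigs). Nrp2 had 47.7, 56.1, 52.1 and 53.8 CPM for low-low 1 to 4 and 53.6, 44.3, 49.3 and 41.9 for standard-low 1 to 4, with overlapping groups. The estimated log2 change was -0.15 ± 0.08, with an unadjusted p of 0.0615. The lower contig was Nrp2 contig 4450639, which went from 2.50 ± 0.15 to 1.58 ± 0.48 CPM without overlap (unadjusted p = 0.00724 in edgeR's test). Nrp1 had 48.2 ± 2.3 and 49.3 ± 5.8 CPM, and its highest library, standard-low 2 at 57.95 CPM, lay far above the other three at 46.1 to 46.8. Its 2 higher contigs were 226362 and 2866935.

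Among the ephrins, which signal between touching cells, 5 of 65 contigs were at the nominal level (7.69%, against 5.68% of all contigs). The lower one lay in Efnb2 and the 4 higher ones in Efna5, a lipid-anchored ephrin that acts on class A Eph receptors. Efna5 had 45 contigs, read under 2 mouse gene identifiers, and its summed CPM was 67.8, 74.1, 71.3 and 73.1 in low-low 1 to 4. For standard-low 1 to 4 it was 83.9, 94.3, 70.5 and 75.8, so 3 libraries lay above the low-low range and standard-low 3 within it. The mean went from 71.6 ± 2.8 to 81.1 ± 10.4 CPM, with a log2 fold change of 0.18 ± 0.07, an unadjusted p of 0.0198 and an adjusted p of 0.805 in edgeR's test.

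With the CpG density offset the Efna5 estimate was 0.18, with an unadjusted p of 0.0113 and an adjusted p of 0.986. It fell to 0.10 without standard-low 2 (unadjusted p = 0.0747 in edgeR's test), and the unadjusted p was 0.0695 without low-low 1 and 0.0596 without standard-low 1. Of its 45 contigs, 33 had higher estimates, and their median was 0.20. Efna5 contig 1163895 had 0.306, 0.594, 0.642 and 0.691 CPM for low-low and 1.37, 1.35, 0.746 and 0.930 CPM for standard-low 1 to 4. Its groups did not overlap, and it rested on 81 reads in all, the lowest summed count of any contig in the table. The other three higher contigs were 2538027, 627463 and 599347, with log2 fold changes of 0.71, 0.56 and 0.37.

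Efna2 stood at the other end. It had 11.2, 12.8, 13.5 and 10.6 CPM for low-low 1 to 4 and 11.7, 7.17, 11.6 and 8.79 for standard-low 1 to 4. Standard-low 2 and 4 lay below the low-low range and the other two within it. Its log2 fold change was -0.29 ± 0.14, with an unadjusted p of 0.0467 and an adjusted p of 0.805, and all 4 of its contigs had lower estimates. With the CpG density offset it was -0.15, with an unadjusted p of 0.219, and without standard-low 2 it was -0.17, with an unadjusted p of 0.163. Efnb2, a transmembrane ephrin of arteries and neurons, had 17.9 ± 0.7 and 16.5 ± 1.8 CPM (unadjusted p = 0.23 in edgeR's test). Efnb1, Efnb3, Efna3 and Efna4 were each read from 1 contig with 99 to 137 reads in all, and their estimates of 0.11 to 0.37 carried standard errors of 0.26 to 0.38.

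Among the Eph receptors 27 of 265 contigs (10.2%) were at the nominal level, of which 17 were lower and 10 higher in standard-low, and 20 (7.55%) had groups that did not overlap. Over all contigs these shares were 5.68% and 3.24%, and the difference from them was not tested. Of the 14 genes, 6 had lower estimates and 8 (57.1%) higher ones, beside 41.3% higher over all genes. The class A receptors, which bind lipid-anchored ephrins, gave 11 lower and 7 higher contigs of 131, and the class B receptors, which bind transmembrane ephrins, 6 lower and 3 higher of 134.

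The dense-CpG genes Epha8 and Epha2 held most of the lower contigs in class A. Epha8 had 4 lower and 1 higher contig of 18 at the nominal level, and Epha2 had 3 lower of 13. Over all contigs 2.76% were lower and 2.93% higher at that level. The lower share was 5.70% of all contigs with 3 to 4 CpG per 100 bases and 9.92% of those with 4 or more. The difference of these genes from such shares was not tested. Epha8 contig 212575, matching chr4:136930358-136930746, had 2.14, 3.42, 2.89 and 3.15 CPM for low-low and 2.05, 1.52, 1.74 and 2.03 CPM for standard-low 1 to 4. The gap between low-low 1 and standard-low 1 was under 0.1 CPM. The estimated log2 change was -0.66 ± 0.22, with an unadjusted p of 0.00399 and an adjusted p of 0.745. Summed over the gene, Epha8 had 47.6 ± 3.2 and 42.8 ± 6.7 CPM (log2 fold change -0.15 ± 0.09, unadjusted p = 0.0960 in edgeR's test).

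The named higher contigs of class A lay in Epha7, Epha4, Epha6 and Epha3. Epha7, a receptor of ephrin-A ligands with 1.91 CpG per 100 bases, had 9.40, 10.9, 10.8 and 9.22 CPM for low-low 1 to 4 and 12.1, 15.4, 10.03 and 11.1 for standard-low 1 to 4. Standard-low 3 lay within the low-low range and the other three above it. Its log2 fold change was 0.27 ± 0.13, with an unadjusted p of 0.0469 and an adjusted p of 0.805, and with the CpG density offset it was 0.23 (unadjusted p = 0.0665 in edgeR's test). Without standard-low 2 the Epha7 estimate was 0.13 (unadjusted p = 0.260 in edgeR's test). Epha7 contig 1985243 had 0.764, 1.11, 1.04 and 0.768 CPM for low-low and 2.14, 1.18, 1.49 and 1.94 CPM for standard-low 1 to 4, without overlap. The estimated log2 change was 0.86 ± 0.30, with an unadjusted p of 0.00436 and an adjusted p of 0.749.

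Epha4, a receptor that binds ephrins of both classes, had 48.0 ± 3.7 CPM over the low-low and 50.4 ± 5.1 over the standard-low libraries over 24 contigs (log2 fold change 0.07 ± 0.07, unadjusted p = 0.368 in edgeR's test). Its contig 3941516 had 1.45, 1.71, 1.45 and 1.54 CPM for low-low and 2.31, 2.87, 2.57 and 2.03 CPM for standard-low 1 to 4, without overlap. Its log2 fold change was 0.67 ± 0.24, with an unadjusted p of 0.0061 and an adjusted p of 0.769. The other two were Epha3 contig 2119402, from 1.13 ± 0.10 to 1.79 ± 0.46 CPM, and Epha6 contig 4099854, from 0.847 ± 0.231 to 1.46 ± 0.29 CPM. The gene name of the Epha6 contig rests on a mouse match of 29 bases.

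Epha5 showed both directions within 1 gene. Its sum was 16.3 ± 0.8 CPM over the low-low and 16.6 ± 1.5 over the standard-low libraries (unadjusted p = 0.823 in edgeR's test), while of its 9 contigs 2 were lower and 1 higher at the nominal level. Epha5 contig 1344760 had 1.15, 1.11, 1.12 and 1.38 CPM for low-low and 0.856, 0.675, 0.497 and 0.423 CPM for standard-low 1 to 4. The groups did not overlap, and the log2 fold change was -0.95 ± 0.35 with an unadjusted p of 0.00797, on 91 reads in all. In class B, Ephb1 contig 815288 went from 2.66 ± 0.27 to 1.66 ± 0.27 CPM (unadjusted p = 0.00448 in edgeR's test), while the 49 contigs of Ephb1 summed to 76.3 ± 1.5 and 78.0 ± 4.5 CPM. Ephb3, the highest Eph gene per kb, had 35.3 ± 2.2 and 31.2 ± 6.5 CPM (unadjusted p = 0.101 in edgeR's test).

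**Figure D4:**
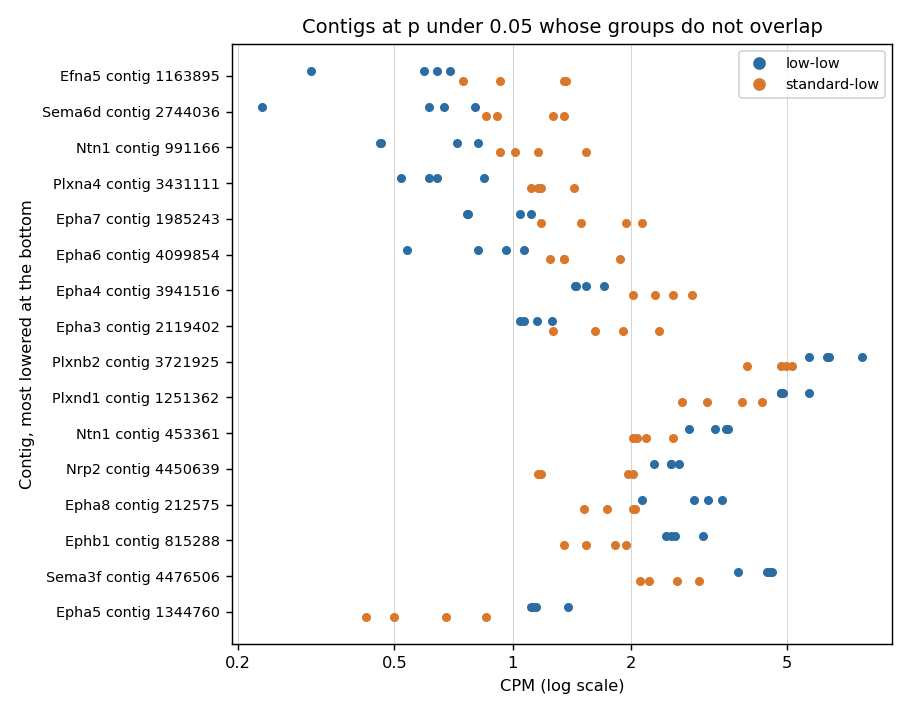
CPM on a log scale in each library for the 8 lower and 8 higher member contigs with the lowest unadjusted p under 0.05 whose groups do not overlap. Most lie under 5 CPM, and the gap between the groups is narrow in Epha8, Efna5 and Epha3.

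The slits, secreted repellents, held 159 contigs, of which 5 were lower and 2 higher at the nominal level (4.40%, against 5.68% of all contigs). In 1 of them (0.629%, against 3.24% of all contigs) the groups did not overlap. Slit3, with 105 contigs and 22140 reads, was the most deeply read member. It had 222.2, 218.5, 223.8 and 227.7 CPM for low-low 1 to 4 and 232.0, 217.9, 218.2 and 220.6 for standard-low 1 to 4. The groups overlapped throughout, and the log2 fold change was -0.01 ± 0.04 (unadjusted p = 0.889 in edgeR's test). Slit1 had 70.8 ± 2.2 and 67.1 ± 4.8 CPM.

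Slit2, the ligand best known from midline crossing, had 27.8, 31.8, 28.7 and 29.4 CPM for low-low 1 to 4 and 32.0, 37.8, 28.4 and 30.7 for standard-low 1 to 4. The groups overlapped, and the log2 fold change was 0.13 ± 0.08 with an unadjusted p of 0.141. Of their receptors, 3 of 50 robo contigs (6.0%, against 5.68% of all contigs) were at the nominal level, all higher in standard-low. They were Robo1 contig 2136224 and Robo2 contigs 2681860 and 3538436. The Robo1 contig had the largest log2 fold change of any member, 1.0 ± 0.36, and 33 of its 105 reads came from standard-low 2. Robo1 as a whole had 46.6 ± 2.0 and 44.9 ± 7.0 CPM (log2 fold change -0.05 ± 0.08, unadjusted p = 0.522 in edgeR's test), with standard-low 2 highest at 54.8. Without that library the log2 fold change was -0.17, with an unadjusted p of 0.0117 and an adjusted p of 0.965, and without standard-low 3 or 4 it was 0.00 and -0.01. Robo4, the robo of endothelium, had 8.39 ± 1.3 and 8.16 ± 1.1 CPM.

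The netrins, secreted attractants and repellents, had 4 lower and 1 higher contig of 57 at the nominal level (8.77%, against 5.68% of all contigs). Ntn1 had a named contig in each direction. Contig 453361 had 3.29, 3.49, 2.81 and 3.53 CPM for low-low and 2.57, 2.19, 2.07 and 2.03 CPM for standard-low 1 to 4. Contig 991166 had 0.458, 0.817, 0.723 and 0.461 CPM for low-low and 1.54, 0.928, 1.16 and 1.01 CPM for standard-low 1 to 4. Neither overlapped between groups, with unadjusted p of 0.00698 and 0.0121 in edgeR's test, and their densities were 2.93 and 1.55 CpG per 100 bases.

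Over its 37 contigs Ntn1 had 89.9 ± 3.5 CPM over the low-low and 88.2 ± 4.3 over the standard-low libraries (log2 fold change -0.03 ± 0.05, unadjusted p = 0.611 in edgeR's test). Ntn3, with the densest CpG of all 67 genes at 6.29 per 100 bases, had 6.13 ± 0.49 and 5.16 ± 0.98 CPM (log2 fold change -0.25 ± 0.15, unadjusted p = 0.11 in edgeR's test). The netrin-Gs, lipid-anchored synaptic relatives that bind other partners than Dcc, had 1 of 37 contigs at the nominal level (2.70%, against 5.68%). It lay in Ntng1, which had 35.7 ± 1.7 and 36.0 ± 2.9 CPM, while Ntng2 had 31.7 ± 2.0 and 29.6 ± 6.3.

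Dcc, the netrin receptor, had 30.7, 29.1, 31.2 and 33.2 CPM for low-low 1 to 4 and 32.8, 37.4, 32.2 and 33.4 for standard-low 1 to 4. Standard-low 2 and 4 lay above every low-low library, and the other two did not. The log2 fold change was 0.13 ± 0.07, with an unadjusted p of 0.0917 and an adjusted p of 0.812 in edgeR's test. With the CpG density offset the Dcc estimate was 0.10. Dcc held 1.92 CpG per 100 bases, and contigs with under 2 had a median log2 fold change of 0.07 over the whole table. Of its 23 contigs 18 had higher estimates (78.3%, against 50.3% of all contigs). At the nominal level were 5 (21.7%, against 5.68% of all contigs), and the difference was not tested. Contigs 2701050 and 2624818 were lower and did not overlap between groups, while contigs 528470, 1300649 and 2787058 were higher and did.

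**Figure D5:**
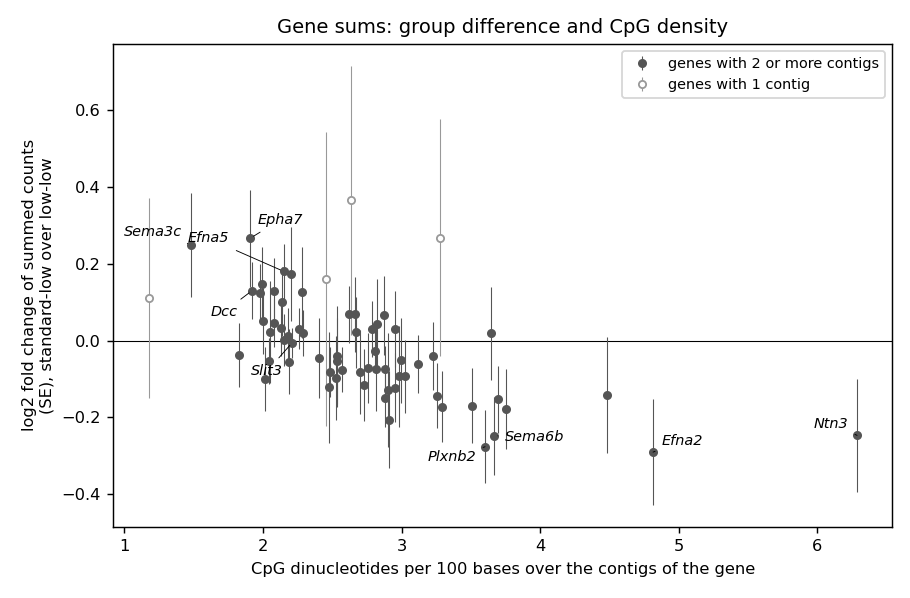
Log2 fold change of summed counts (standard-low over low-low, bars show SE) against CpG per 100 bases for the 67 genes, with the 4 genes read from 1 contig as open circles. Genes with 3.5 or more CpG per 100 bases lie below 0 except Ephb4, and the genes above 0.1 have under 3.5.

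Gene sums repeated the relation with CpG density seen among contigs. Spearman's rho between density and log2 fold change was -0.65 across the 67 genes and -0.38 with the CpG density offset, which brought 47 of the 67 estimates nearer to 0. Because the offset was fitted to these same counts, a weaker relation is built in and does not show what made the estimates differ. Within the 18 genes with 20 or more contigs rho ranged from -0.50 in Nrp1 to 0.09 in Epha6 and was below 0 in 13. Just outside the genes, up to 2000 bases away, lay 14 contigs of 11 of them, with a median of 3.11 CPM per kb beside 3.29 inside and a median log2 fold change of 0.02. Of these 14, 2 were lower and 0 higher at the nominal level, where 2.76% and 2.93% of all contigs were, and 0 were called. Their median density was 2.71 CpG per 100 bases, beside 2.34 in the members.

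Other genes of the pathway were read from 2 lists. A list of 36 guidance co-receptors and other ligands, such as the netrin receptors Unc5a to Unc5d and the cell adhesion molecule Dscam, had 34 genes measured in 421 contigs. Of these contigs 0 were called, and 13 were lower and 17 higher at the nominal level (7.13% of them, against 5.68% of all contigs). Of its 34 genes, 0 reached the nominal level, 16 had lower and 18 higher estimates, and their median was 0.01, beside -0.03 over all genes.

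A list of 54 cytoplasmic effectors that carry guidance signals to the cytoskeleton had 53 genes measured in 867 contigs. Of these contigs 0 were called, and 28 were lower and 22 higher at the nominal level (5.77%, against 5.68% of all contigs). At that level 2 of the 53 genes were lower (3.77%, against 4.33% of all genes) and 0 higher, so the list lay near the background. Limk1, a kinase that inactivates cofilin, went from 25.8 ± 1.1 to 21.8 ± 1.6 CPM without overlap (log2 fold change -0.24 ± 0.08, unadjusted p = 0.00704, adjusted p = 0.805 in edgeR's test). Fes, a tyrosine kinase downstream of semaphorin receptors, went from 25.5 ± 1.8 to 21.0 ± 5.5 CPM with overlap (-0.28 ± 0.13, unadjusted p = 0.0424). It held 4.17 CpG per 100 bases and was lowest in standard-low 2, at 13.5 CPM. With the CpG density offset the estimates were -0.19 for Limk1 and -0.17 for Fes (unadjusted p = 0.0156 and 0.108 in edgeR's test). The median over the list was -0.02.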

How the data were processed

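The authors deposited 1 table of whole-number read counts per contig for the 8 libraries, with a sequence and, for some contigs, a mouse match and nearest mouse gene in the contig name. The submitters' processing notes name FastQC and BWA. No version of either, no assembler and no mouse build is given in the sources used here. The header separates library names by spaces and the values by tabs, so columns were matched in header order, and 0 columns were left unmapped. No contig summed to fewer than 81 reads, so the deposited counts hold only contigs above some minimum.

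The contig test was that of edgeR 4.0.16, run in R 4.3.3 (TMM factors, estimateDisp, glmQLFit, two-sided glmQLFTest, standard-low over low-low), p-values being adjusted by Benjamini-Hochberg across the 548060 contigs and called below 0.05. Requiring a mean of 10 counts removed 0 contigs, so all 1078 members were tested. Gene sums added the counts of all contigs of a symbol at distance 0 and were tested over 18910 genes with the factors of the contig table. CPM are counts per 1000000 reads of the library total times its TMM factor, and ± is the SD over 4 libraries, or the SE of a log2 fold change. The edgeR test of contigs and of gene sums, and DESeq2 and limma voom on gene sums, were also run on simulated counts. That simulation held no shift of capture with CpG density between libraries. It did not include the replicate block or the density offset, so it cannot speak to either. Alternatives used DESeq2 1.42.0 and limma voom 3.58.1, other factors, filters and matches, a replicate block, each library left out, and an offset for CpG density in 40 classes that was added after seeing the data.

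The members, lists and rule for named genes were chosen with earlier results of these data known. The rule named 12 fixed genes, up to 8 contigs in each direction with the lowest p whose groups did not overlap, the 5 genes with the lowest p in each direction, the highest and lowest gene per kb of each family, and the 5 contigs with the highest CPM per kb. The other contigs named where a count was 5 or fewer, and the printed sequences, were chosen after their values were seen. An Epha8 contig was not printed because its place relative to the untranslated regions was not settled, and sequence from mouse chromosome 18, which holds Dcc, was not printed.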

Additional observations from a re-analysis of the deposited data

Results flagged for a closer look

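Of the 96 groups of 4 libraries behind the named genes and contigs, 7 held a library far from the other three, and chance alone marks about 1 in 20 groups. Among gene sums, low-low 2 had 16.86 CPM in Efnb2, with the others at 18.14 to 18.26. Low-low 3 had 32.03 CPM in Ephb3, with the others at 35.98 to 36.63. Standard-low 2 had 57.95 CPM in Nrp1, with the others at 46.05 to 46.81. Among contigs, low-low 4 had 5.683 CPM in Plxnd1 contig 1251362, with the others at 4.816 to 4.889, and 1.382 CPM in Epha5 contig 1344760, with the others at 1.114 to 1.146. Standard-low 1 had 1.883 CPM in Epha6 contig 4099854, with the others at 1.243 to 1.352. Low-low 1 had 3.743 CPM in Sema3f contig 4476506, with the others at 4.457 to 4.576.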

How the results depend on the processing

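Of the 1078 member contigs, 0 were called in the main fit and its 16 alternatives. The 48 lower and 35 higher contigs at an unadjusted p under 0.05 became 21 and 14 with DESeq2 and 31 and 12 with a filter at a mean of 20 counts, which tests fewer contigs. With the CpG density offset they became 31 and 34. Leaving out 1 library gave 34 to 73 lower and 27 to 55 higher, both highest without standard-low 3. Of the 67 genes, leaving out 1 library gave 0 to 1 called, the 1 being Plxnb2 without standard-low 3. The number of lower genes went from 3 to 1 with the CpG density offset and to 1 to 16 with a library left out, 16 without standard-low 3. Over all genes leaving out standard-low 3 raised the lower share from 4.33% to 12.15% as well. The number of higher genes went from 2 to 1 with limma voom, 5 with TMM factors of the gene sums, 1 with the offset, and 0 to 6 with a library left out, 0 without low-low 1 or standard-low 1 and 6 without standard-low 3. Which genes these were changed too: without standard-low 2 the higher gene was Sema4f, in place of Efna5 and Epha7, and the lower genes were Plxnb2 and Robo1. Plxnb2 was lower at an unadjusted p under 0.05 in the main fit and its 18 alternatives. With the replicate number as a block, 50 contigs were lower and 37 higher, 7 genes were lower (Efna2, Epha8, Plxnb2, Plxnd1, Sema3f, Sema3g and Sema6b) and 2 higher, and 0 members were called. To see whether the numbers pair libraries, deviations of log2 CPM from the group mean were correlated between the groups over 13124 genes. Same-numbered libraries gave -0.01, 0.05, 0.16 and -0.02, and differently numbered ones -0.16 to 0.07. The numbers were therefore not taken as a pairing. Over the whole table called contigs went from 147 to 32 with DESeq2, 50 with limma voom, 65 with the stricter filter, 206 with the block and 7 with a mouse match of 100 bases or more. The causes of these shifts were not tested. Of 811 alternative values for 48 named results, 791 kept their sign, and 9 of the 48 results changed sign in some setting. The setting without a filter repeats the main fit, because the filter removed nothing, so its values agree by construction. The alternatives share most of their libraries, and many named results were picked for a low p, so the count does not measure reliability. Depth limits single contigs, whose median is 19.9 reads per library.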
